A study of Mus musculus with 15 samples.

Results

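The start and the end of CD4 T cell maturation in the mouse thymus were compared: CD4+CD8+ double-positive (DP) thymocytes that had not yet been signalled, named PreDP, and the mature CD4 single-positive (CD4SP) thymocytes named M2. The comparison took the samples by their labels, 3 PreDP and 3 M2, which made 6 of the 15 samples of the series. PreDP cells were sorted as CD69-TCRβ- DP cells from B2m-/- mice, which lack the light chain of MHC class I and so select CD4 T cells only. M2 cells were sorted as Qa2+CD69- CD4SP cells from Rag2-GFP BAC transgenic mice, after a gate on Rag2-GFP and a dump channel with NK1.1, CD25 and GL3 that took out recirculating, natural killer T, regulatory and γδ T cells. The stages between them were PostDP, the CD69+TCRβ+ DP cells of B2m-/- mice, and SM&M1, the Qa2-CD69+ CD4SP cells of Rag2-GFP mice, with 3 samples each. All mice were young adults of the C57BL/6 background, and no group received a treatment. The mouse line therefore differed between PreDP and M2, and over the step from PostDP to SM&M1 line and stage cannot be told apart.

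RNA of each sorted sample was hybridised to 1 Affymetrix mouse expression array, and levels are given as log2(signal + 16). A difference on this scale understates the change of dim genes. Median signals ran from 80.5 to 121 over the 12 arrays of the 4 stages, and arrays of a group correlated at 0.965 to 0.975. Of 18193 genes measured, 11871 lay above an array's median in at least 3 arrays and were tested with limma, fitted to the 4 stages together. A gene was called when its Benjamini-Hochberg adjusted p over all genes tested was under 0.05, and errors of a difference are standard errors of the fit with 3 arrays a group. The samples are labelled as biological replicates, and the labels do not say whether each came from its own animal. In bulk RNA, fewer cells of a kind and less RNA per cell cannot be told apart.

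DP thymocytes rearrange the T cell receptor α chain with the Rag1 and Rag2 recombinase and carry both coreceptors, CD4 and CD8. A cell whose receptor binds a self peptide on MHC is positively selected: it stops recombination, keeps 1 coreceptor, extends its survival and moves from the cortex to the medulla. Late in the medulla, single-positive cells take up the genes of egress and of naive T cells, such as the sphingosine phosphate receptor S1pr1 and its activator Klf2, and become responsive to interferon and cytokines.

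The genes that define both stages followed the labels. Cd8a stood at 14.09, 13.88 and 13.69 in the PreDP arrays and at 7.27, 7.08 and 5.22 in the M2 arrays, and Cd8b1 at 14.12 to 14.66 against 10.18 to 10.40. Cd4 was bright in both, at 12.56 to 12.78 in PreDP and 11.82 to 12.18 in M2 (log2 difference -0.66 ± 0.17, limma adjusted p = 0.00971). The probe set that H2-Q7 shares with H2-Q9, the genes of the Qa2 antigen used in the sort, rose from 8.12, 7.36 and 7.33 to 13.68, 13.90 and 14.00. B2m, deleted in the PreDP mice, read 9.55 to 9.78 there and 14.33 to 14.85 in M2. Cd69, whose protein was absent by the gate from both populations, was nevertheless higher in M2, at 11.64, 11.67 and 11.32 against 9.04, 9.06 and 9.19 (2.45 ± 0.16, adjusted p = 3.95e-07). The sex-linked genes Xist and Eif2s3y varied among the PreDP arrays. Other probe sets of Xist differed by 1.93 ± 2.41 and 1.76 ± 2.46 and were not called (limma adjusted p = 0.587 and 0.628). Errors of this size cannot show that the groups are alike. Xist read 13.06 to 13.77 and the Y-linked Eif2s3y 9.85 to 10.98 in M2, so that both were high in all 3 arrays. In PreDP, Xist read 13.57, 7.19 and 13.65 and Eif2s3y 4.40, 11.73 and 4.10, each array high in 1 of them. The pattern of the sex-linked genes thus differed between the groups. The part of sex in the differences between M2 and PreDP was not tested.

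Promoter sequences of 4 genes that rose are shown because the interferon-stimulated genes moved together and many share a known element. They are the 2 members of that list with the largest rise whose window held GAAA, any 2 bases and GAAA again on either strand, the core of the interferon-stimulated response element; the member with the largest rise whose window held none; and Gimap4, the largest rise of the maturation genes. Each run is the 250 bases before the RefSeq transcription start (GRCm38.p6), 5′ to 3′ on the strand of the gene, with matches in capitals. Ifit1bl1 lies on the minus strand at chr19:34601969-34602218 and holds 1 match, and Ifit3 on the plus strand at chr19:34583279-34583528 holds 2. Ifit1bl1 has 2 promoter windows, and the first that held a match is shown. Oasl2, on the plus strand at chr5:114896684-114896933, and Gimap4, on the plus strand at chr6:48684328-48684577, hold 0.
Ifit1bl1: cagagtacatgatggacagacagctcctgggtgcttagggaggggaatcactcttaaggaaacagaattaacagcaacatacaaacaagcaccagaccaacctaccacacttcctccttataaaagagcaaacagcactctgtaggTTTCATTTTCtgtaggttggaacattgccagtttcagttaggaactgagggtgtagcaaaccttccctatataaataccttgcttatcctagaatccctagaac
Ifit3: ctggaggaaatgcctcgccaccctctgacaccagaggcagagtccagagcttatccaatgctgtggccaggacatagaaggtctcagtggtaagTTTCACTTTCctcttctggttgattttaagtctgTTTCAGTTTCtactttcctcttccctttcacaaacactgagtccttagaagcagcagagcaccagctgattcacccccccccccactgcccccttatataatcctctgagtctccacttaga
Oasl2: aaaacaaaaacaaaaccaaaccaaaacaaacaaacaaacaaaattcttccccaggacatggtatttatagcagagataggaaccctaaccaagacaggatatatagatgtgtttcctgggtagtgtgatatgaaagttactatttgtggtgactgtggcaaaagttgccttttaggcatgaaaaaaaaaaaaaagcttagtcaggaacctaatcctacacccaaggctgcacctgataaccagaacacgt
Gimap4: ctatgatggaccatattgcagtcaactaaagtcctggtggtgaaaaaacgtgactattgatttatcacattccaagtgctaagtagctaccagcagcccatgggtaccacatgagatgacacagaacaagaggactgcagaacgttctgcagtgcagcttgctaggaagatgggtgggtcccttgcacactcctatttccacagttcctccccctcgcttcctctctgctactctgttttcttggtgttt
Windows of 300 bases (250 before and 50 after the start) held the motif in 23 of 54 cases for the interferon-stimulated list (42.6%), with 42 of its 57 tested genes matched by symbol. The share was 3.44% over all 32851 RefSeq windows and 3.11% over those of the genes tested. Among genes at least 2-fold higher in M2 it was 6.17% (73 of 1183 windows), and 4.74% once the interferon-stimulated list was taken out. Genes at least 2-fold lower held it in 2.79%. A match is a stretch of letters and not a site shown to be bound, and its absence here says only that these letters are not in the window.

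The ends of the path differed widely. M2 differed from PreDP at 4541 of 11871 genes (38.3%): 2380 were higher (20.0%) and 2161 lower (18.2%). At least 2-fold differences held for 1976 genes (16.6%), of which 1135 rose and 841 fell, and the 3 arrays of one group did not overlap the 3 of the other for 5665 genes (47.7%). The median difference over all genes tested was 0.05. The split depended on scaling: with each array centred on its own median, which moved that median to -0.10, 1562 genes were higher and 2335 lower, 40.1% higher against 52.4%. Without M2 replicate 3 the count of calls was 3768, the lowest of the 12 fits that left out 1 array.

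The differences did not arise evenly over the 3 steps. Of the 1135 genes at least 2-fold higher in M2, 486 made their largest move from PreDP to PostDP, 531 from PostDP to SM&M1 and 118 from SM&M1 to M2. Of the 841 lower, the counts were 462, 277 and 102. Side by side, and with arrays shared between the comparisons, PostDP differed from PreDP at 2819 genes, SM&M1 from PreDP at 4214 and M2 from SM&M1 at 608. The steps that stayed within a line, PreDP to PostDP and SM&M1 to M2, were summed to show how much of the difference did not cross from one mouse line to the other. This sum was called in the same direction for 732 of the 2380 higher genes (30.8%) and 734 of the 2161 lower genes (34%). It was called in the opposite direction for 19 and 7 of them, and it held at least 0.5 of the difference for 55.8% and 62.7%. Over all 11871 genes tested the sum was called higher for 821 and lower for 936. It uses the same PreDP and M2 arrays by which these genes were chosen, so part of the agreement is built in. The sum is called the within-line part here, and its standard error is larger than that of the direct difference.

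The 10 largest rises were Gimap4, Ctss, Il6ra, Slfn1, Ccnd2, Il7r, Tesc, Itgb3, Ccr7 and Samhd1. Gimap4, a small GTPase of the lymphocyte GIMAP family, read 5.76, 6.13 and 5.75 in PreDP and 13.96, 14.23 and 14.43 in M2 (8.32 ± 0.19, adjusted p = 1.97e-10), and its within-line part was 6.63. Il7r, the IL-7 receptor α chain needed for naive T cell survival, went from 5.35, 6.31 and 6.35 to 12.68, 12.87 and 12.93 (6.82 ± 0.27). Ccr7, the chemokine receptor that draws cells into the medulla and lymph nodes, stood at 7.48, 6.97 and 6.32 against 13.17, 13.32 and 13.24. In each of these the lowest M2 array lay more than 5 log2 units above the highest PreDP array.

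Ccnd2, a D cyclin, was the tightest of the 10, at 6.76 to 6.95 in PreDP and 13.86 to 13.91 in M2 (7.03 ± 0.12, adjusted p = 3.29e-11). Ctss, the lysosomal protease cathepsin S, rose by 7.83 ± 0.23 from 5.36 to 6.19 up to 13.34 to 13.95. Slfn1, a growth-inhibitory Schlafen gene, rose by 7.21 ± 0.47. Its PreDP arrays were uneven, 6.56 against 4.46 and 4.73, and all 3 lay below 12.12, the lowest in M2.

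Il6ra, the IL-6 receptor α chain, differed from the others in its timing: PostDP arrays read 4.57 to 6.18, within the PreDP range of 4.46 to 6.06 but for a single array, and M2 arrays 12.20 to 12.31. Its difference of 7.23 ± 0.44 had a within-line part of 1.81 (adjusted p = 0.0774). Tesc, a calcium-binding protein, rose by 6.45 ± 0.42. The integrin chain Itgb3 rose by 6.34 ± 0.32 and Samhd1, the nucleotide triphosphohydrolase that limits viral replication, by 6.24 ± 0.20. Probe sets of 1 gene did not always move equally: with the mean of all probe sets the difference was 4.32 for Il6ra and 3.47 for Slfn1, and that of Samhd1 was also smaller.

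**Figure D1:**
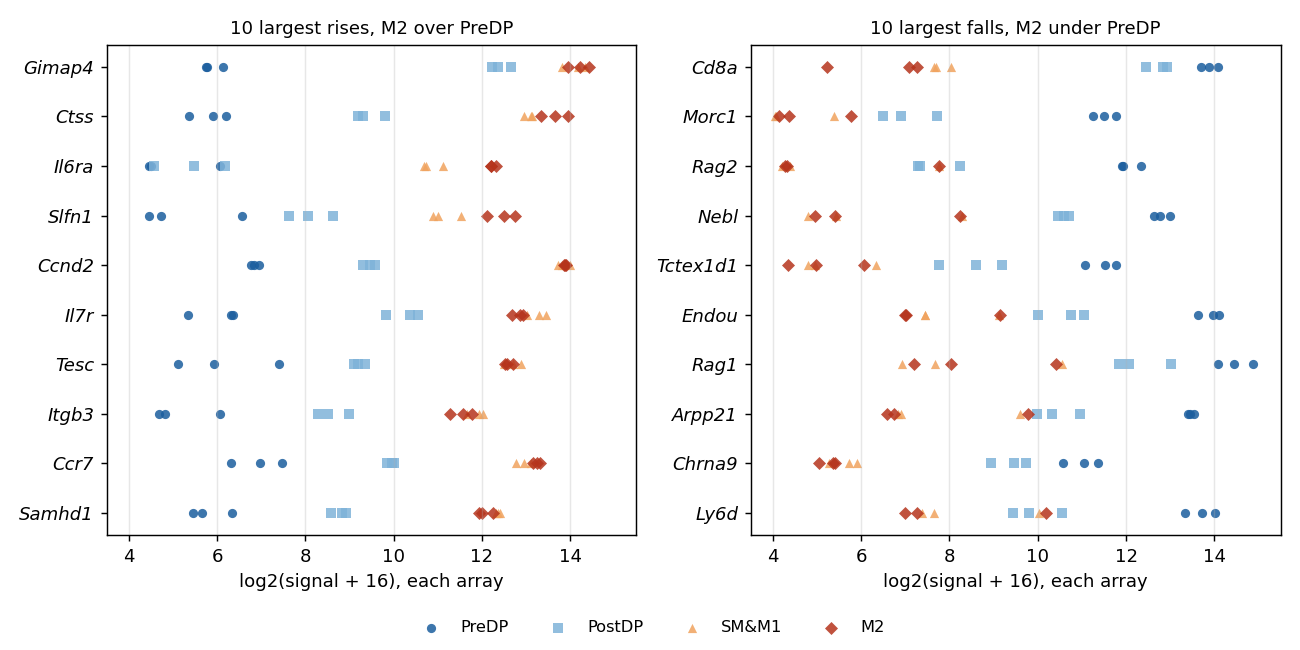
Levels of the 10 genes with the largest rise (left) and the 10 with the largest fall (right) in M2 against PreDP; x axis, log2(signal + 16), 1 point per array, 3 arrays for each of 4 stages. Only genes whose PreDP and M2 points do not overlap were eligible. In Rag2, Nebl and Ly6d 1 M2 array (replicate 1, with Rag2 at 7.77 against 4.31 and 4.28) stands above the other M2 arrays.

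What fell most were the genes of the DP programme. Of 35 tested genes of DP identity, 29 fell, 1 rose and 5 were not called, with a list median of -4.06. Counts for this and the following lists stand beside 20.0% higher and 18.2% lower over all genes tested. The list was drawn up with earlier results of these data known. Rag2, a recombinase subunit, read 11.91, 11.92 and 12.34 in PreDP and 7.77, 4.31 and 4.28 in M2 (-6.61 ± 1.01, adjusted p = 0.000308). Rag1 read 14.87, 14.45 and 14.09 against 10.41, 8.05 and 7.19 (-5.92 ± 0.92). Cd8a fell by 7.37 and the germ-cell ATPase gene Morc1 by 6.76, from 11.25 to 11.78 down to 4.14 to 5.76.

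In several of these genes M2 replicate 1 stood apart from the other M2 arrays. Nebl, of the nebulin family, read 8.25 in it against 5.40 and 4.96, Arpp21, an RNA-binding phosphoprotein, 9.79 against 6.58 and 6.75, and Ly6d, a lymphoid surface antigen, 10.18 against 7.27 and 6.99. Endou, an endoribonuclease, read 9.14 against at most 7.02. SM&M1 replicate 1 was raised in the same way, with Rag2 at 7.76 against 4.20 and 4.39. Without M2 replicate 1 the falls were larger: -7.76 for Rag2, -6.85 for Rag1, -7.62 for Nebl, -6.80 for Arpp21 and -6.56 for Ly6d. The part of residual DP cells in that array was not tested.

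Other genes of the DP programme, picked after their values were seen because they are textbook markers, behaved alike. Dntt, the polymerase that adds nucleotides at receptor joints, read 13.95 to 14.49 in PreDP and 9.30 to 10.83 in M2 (-4.33 ± 0.38), and Ptcra, the surrogate α chain, 11.38 to 12.03 against 5.72 to 8.58 (-4.89 ± 0.80). Cd24a, a surface protein lost late in maturation, was still at 11.71 to 12.08 in SM&M1 and fell to 11.26, 8.62 and 8.25 in M2. Chrna9, a nicotinic receptor subunit, fell by 5.73 ± 0.25, and Tctex1d1, a dynein light chain relative, by 6.33 ± 0.51. The single DP list member that was higher, Nrgn, a calmodulin-binding protein, read 5.16, 4.79 and 6.01 against 8.55, 6.96 and 6.05. Its groups nearly touched. It lost its call when only the 6 arrays were fitted (adjusted p = 0.0563) or without PreDP replicate 2 (0.0669), and its difference of 1.86 fell to 1.18 without M2 replicate 1.

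Genes of maturation and egress rose as a group: 32 of 45 tested were higher, 3 lower and 10 did not pass, with a median of 1.47. S1pr1, which lets cells leave the thymus, read 6.43, 6.53 and 7.33 in PreDP and 11.49, 12.27 and 11.49 in M2 (4.99 ± 0.27, adjusted p = 9.56e-08). Klf2, the transcription factor that activates it, read 7.65, 7.91 and 7.34 against 12.28, 12.37 and 12.29 (4.68 ± 0.18). Both had arrays in SM&M1 between these levels, at 9.41 to 9.81 and 10.46 to 11.03. Foxo1, a transcription factor upstream of Klf2 and Il7r, rose by 2.43 ± 0.21. All 3 were named after their values were seen. Klf6, the largest fall on the list (-0.98 ± 0.27), was not called with the mean of its probe sets (adjusted p = 0.0773) and was -0.65 without M2 replicate 3.

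Interferon-stimulated genes had the largest share of higher members among the 21 pathway lists. Of 57 tested, 49 rose, 1 fell and 7 were not called, and the median was 1.95. Oasl2, of the oligoadenylate synthetase family, read 5.80, 5.18 and 5.53 in PreDP and 10.42, 10.55 and 10.92 in M2 (5.13 ± 0.28, adjusted p = 1.28e-07). Ifi27l2a, a small membrane protein, read 9.86, 8.16 and 8.70 against 13.76, 13.87 and 14.26 (5.06 ± 0.44). Ifit1bl1, whose promoter window shown above held the element, read 7.91, 7.05 and 7.51 against 11.82, 12.10 and 12.04 (4.50 ± 0.29). Ifit3, an RNA-binding antiviral protein with 2 matches, read 7.28, 6.83 and 6.58 against 11.21, 11.36 and 11.49 (4.46 ± 0.24).

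By step, the medians of the interferon-stimulated list were 0.35 from PreDP to PostDP, 1.26 from PostDP to SM&M1 and 0.40 from SM&M1 to M2. The middle step, the largest, is the one between mouse lines, where line and stage cannot be told apart. Within lines, 20 of the 57 genes were called higher and 4 lower, and Ifit1bl1 had a within-line part of 2.91 (adjusted p = 0.000685). The 4 interferon receptor genes on the cytokine receptor list, named after their values were seen, differed among themselves. Ifngr1, the IFN-γ receptor ligand-binding chain, fell from 12.43, 12.85 and 12.67 to 10.89, 11.07 and 11.15, and Ifnar1 read 9.88 to 10.13 against 9.74 to 10.22 (0.00 ± 0.16). Ifnar2, the other chain of the type I receptor, rose by 0.93 ± 0.16, and Ifngr2 was not called (-0.10 ± 0.35). Epsti1, the member that was lower (-0.81 ± 0.16), lost its call when all 15 arrays were fitted (adjusted p = 0.0959).

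**Figure D2:**
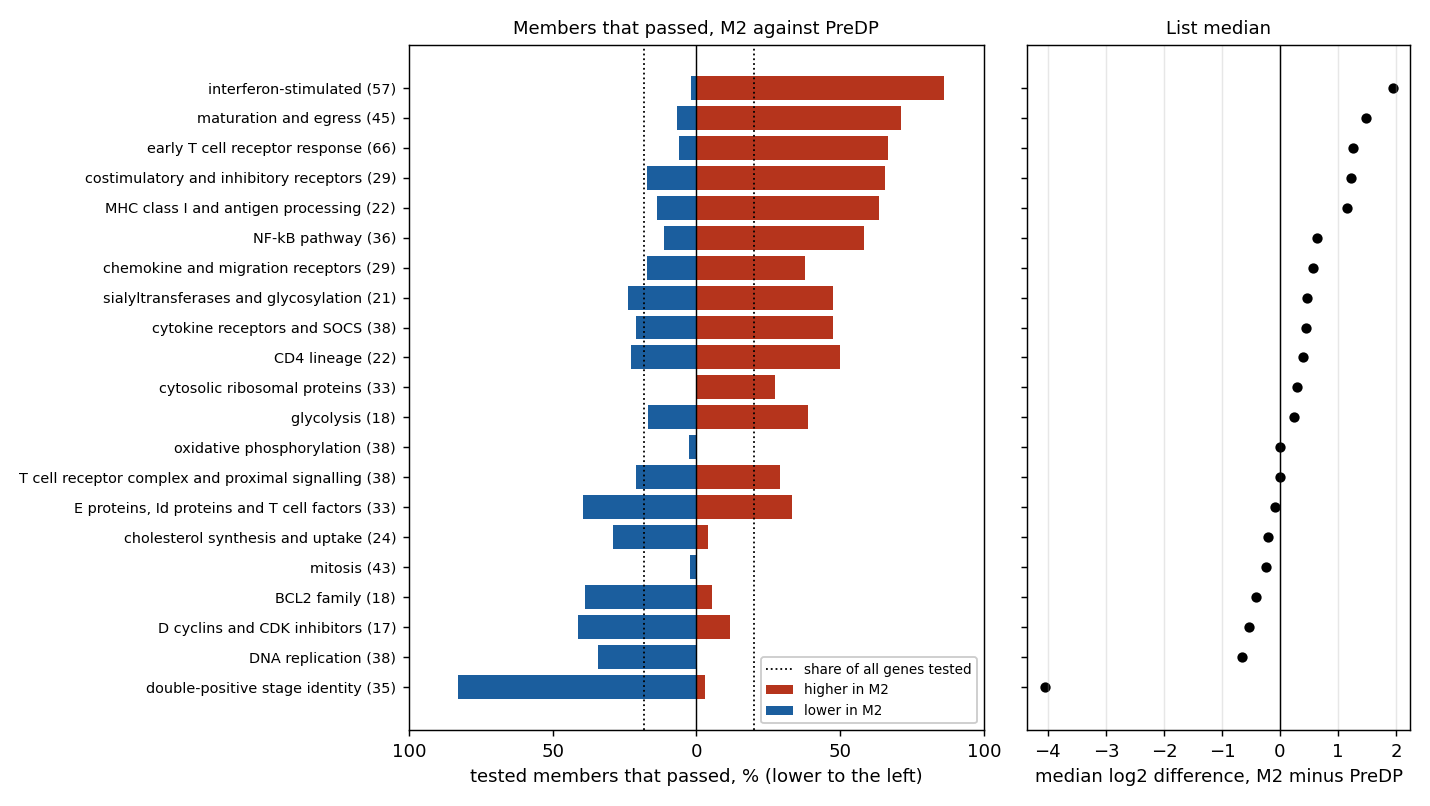
Gene lists in M2 against PreDP. Left, percent of each list's tested members (number in brackets) that passed at adjusted p under 0.05, higher to the right and lower to the left, with dotted lines at the shares over all genes tested (20.0% and 18.2%); right, the median log2 difference of each list, from -4.06 for DP identity to 1.95 for interferon-stimulated genes.

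MHC class I genes were mostly higher, 14 of 22 against 3 lower and 5 that did not pass, with a median of 1.15. The median steps of the list were 0.36, 0.57 and 0.25, and the second lies between mouse lines, where line and stage cannot be told apart. Within lines the median was 0.33, with 4 genes called higher and 1 lower. Nlrc5, the transactivator of MHC class I genes, read 7.72, 7.91 and 7.90 in PreDP and 12.27, 12.37 and 12.65 in M2 (4.58 ± 0.14, adjusted p = 1.8e-09). H2-K1, a classical heavy chain, read 10.96 to 11.20 against 14.14 to 14.67 (3.28 ± 0.16). The rise of B2m, 4.90 ± 0.18, cannot be told apart from its deletion in the PreDP mice, and its within-line part was 0.65 (adjusted p = 0.117). H2-Q2 went the other way (-4.33 ± 0.35), but its probes may read near-identical genes of the family and its direction is uncertain. The Qa2 probe set of H2-Q7 and H2-Q9 differed by 6.25 ± 0.30 and names no single gene.

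Of the genes induced early by T cell receptor signals, most were higher at the end than at the start. Of 66 tested, 44 rose, 4 fell and 18 were not called, with a median of 1.26. The median moved by 1.56 from PreDP to PostDP, then by -0.22 and -0.33. Nr4a1, an orphan nuclear receptor that reports receptor signal strength, read 8.89 to 9.23 in PreDP, 13.10 to 13.42 in PostDP and 11.35 to 11.67 in M2 (2.53 ± 0.15 for M2 over PreDP). Egr2, a zinc finger factor induced by the receptor, went from 6.98, 7.80 and 7.63 to 10.18, 10.27 and 9.41, below its PostDP range of 12.05 to 12.49. Cd5, which tunes receptor signals, read 10.75 to 11.35 against 12.95 to 13.26. Each of these 3 genes thus ended between its start and its PostDP level, and Egr2 and Cd5 were chosen after their values were seen.

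Among the same list, Izumo1r, the folate receptor homologue FR4, rose by 5.45 ± 0.36 and Gpr183, an oxysterol receptor that guides lymphocytes, by 5.16 ± 0.19, from 4.54 to 5.07 up to 9.76 to 10.01. Gpr183 had reached 10.34 to 11.03 by PostDP. Gfi1, a zinc finger repressor, fell by 2.94 ± 0.20. Nr4a1 is also on the list of genes that dissociation and stress can raise, of which 8 of 17 were higher and 2 lower. Hspa1b, a heat shock protein on that list, read 6.44 to 7.65 in PreDP and 9.90, 10.44 and 12.20 in M2. The part of sample handling was not tested.

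NF-κB pathway genes were higher in 21 of 36 cases, lower in 4, and did not pass in 11, with a median of 0.65. Bcl3, a nuclear IκB protein, read 4.34, 4.51 and 4.30 in PreDP, close to the floor set by the added 16, and 10.28, 10.37 and 10.26 in M2 (5.92 ± 0.17, adjusted p = 1.76e-09). Relb, a subunit of the non-canonical pathway, read 5.95 to 6.56 against 9.40 to 9.69 and was already at 9.56 to 10.06 in PostDP. Map3k7, which encodes the kinase TAK1, read 10.44, 10.37 and 9.77 against 9.95, 10.26 and 10.10 and was not called (-0.09 ± 0.20, adjusted p = 0.766). Its partner Tab1 was lower (-0.86 ± 0.16), and lost this call when all 15 arrays were fitted (adjusted p = 0.139). Tnfrsf9, a TNF receptor, rose by 3.63 ± 0.23 on one probe set and differed by -0.27 on another.

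CD4 lineage genes were higher in 11 of 22 cases and lower in 5, the latter near the 18.2% over all genes tested. Zbtb7b, the ThPOK factor that commits cells to the CD4 fate, read 6.92, 6.90 and 7.03 in PreDP and 10.64, 10.82 and 10.42 in M2 (3.68 ± 0.22, adjusted p = 2.56e-07). St8sia6, a sialyltransferase, rose by 5.93 ± 0.19, and it continued to rise at the end, from 9.39 to 9.86 in SM&M1 up to 11.63 to 11.95. Socs1, an inhibitor of cytokine signals, fell by 1.90 ± 0.35. Ctla4, an inhibitory receptor, read 6.50 to 7.73 against 9.05 to 9.68 (2.27 ± 0.39). Gata3, the factor needed for CD4 fate, was back at its start and is described with those genes.

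Survival genes changed in opposite directions. Bcl2 read 7.78, 8.08 and 7.72 in PreDP and 11.51, 12.02 and 11.81 in M2 (3.92 ± 0.17, adjusted p = 2.14e-08), and Bcl2l1, the Bcl-xL gene of DP survival, read 11.61 to 11.64 against 9.99 to 10.50 (-1.42 ± 0.14). The PreDP and M2 arrays of both genes lay apart. Of the 18 BCL2 family genes tested, Bcl2 alone was higher, 7 were lower and 10 did not pass. Bmf, a BH3-only death gene, fell by 3.71 ± 0.23 and Bid, another, by 1.63 ± 0.18.

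Cytokine receptors and SOCS genes were higher in 18 of 38 cases and lower in 8, with a median of 0.44. Chemokine and migration receptors were higher in 11 of 29 and lower in 5, with a median of 0.57. In both lists the lower members lay near the 18.2% over all genes tested. Il2rb, the shared β chain of the IL-2 and IL-15 receptors, rose by 4.98 ± 0.18 on the probe set used and by 1.44 ± 0.31 on its other one, which an added 1 in place of 16 would pick (1.61). Il12rb1, an IL-12 receptor chain, read 8.27 to 8.66 against 5.52, 6.07 and 7.35. Gpr18, a lipid receptor, rose by 5.01 ± 0.18 and Plxnd1, the plexin that helps DP cells move between cortex and medulla, fell from 12.29, 12.30 and 12.33 to 8.60, 8.31 and 7.87 (-4.05 ± 0.17). Cxcr4 and Ccr9, the cortical chemokine receptors, named after their values were seen, fell by 3.36 ± 0.24 and 2.73 ± 0.31. Cxcr4 had its largest move between PostDP (11.64 to 12.25) and SM&M1 (8.15 to 8.78), whereas Ccr9 was still at 13.49 to 14.17 in SM&M1 and at most at 12.33 in M2.

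Costimulatory and inhibitory receptors were higher in 19 of 29 cases and lower in 5, with a median of 1.23. Btla, an inhibitory receptor, read 6.42, 7.38 and 6.84 in PreDP and 11.65, 11.79 and 12.13 in M2 (4.98 ± 0.23), and the tetraspanin Cd53 rose by 4.29 ± 0.17. Cd200, an inhibitory ligand, rose by 3.71 ± 0.24. The within-line parts of these 3 genes, which sum the first and the last step, were 4.54, 4.15 and 2.93. Sh2d1a, the adaptor SAP of SLAM receptors, fell by 2.13 ± 0.16.

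Of 38 genes of the T cell receptor complex and its proximal signalling, 11 were higher and 8 lower. These counts were not far from the shares over all genes tested (20.0% and 18.2%). The list median of -0.0012 took either sign among the alternatives. Cd3e did not pass (-0.08 ± 0.18), the adhesion receptor Cd2 rose by 2.92 ± 0.27, Themis, an adaptor of positive selection, fell by 2.24 ± 0.12, the kinase Tec fell by 2.11 ± 0.17 and Scn4b, a sodium channel subunit, by 3.07 ± 0.37. Transcription factors of the E, Id and TCF groups were likewise mixed, 11 higher and 13 lower of 33, around a median of -0.08 that turned to 0.03 without M2 replicate 3. Myb fell from 13.44, 13.85 and 13.57 to 10.80, 9.57 and 9.42 (-3.69 ± 0.39) and Ets2 by 3.21 ± 0.16. Id2, an inhibitor of E proteins, rose by 3.34 ± 0.21 and Ikzf4, an Ikaros family factor, by 4.22 ± 0.21.

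Sialyltransferase and glycosylation genes were higher in 10 of 21 cases and lower in 5. St3gal1, whose product changes lectin binding as thymocytes mature, read 6.54, 6.78 and 7.27 in PreDP and 9.24, 9.48 and 9.63 in M2 (2.59 ± 0.24). St6gal1 rose by 1.97 ± 0.18 and the sialidase Neu3 fell by 2.13 ± 0.30. Glycolysis genes were higher in 7 of 18 cases and lower in 3, the latter near the 18.2% over all genes tested. Ldhb, a lactate dehydrogenase subunit, stood at -2.85 ± 0.16 and the lactate transporter Slc16a1 at -2.44 ± 0.13. Aldoa, aldolase, was at 1.19 ± 0.14 and the glucose transporter Slc2a3 at 1.07 ± 0.10.

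Housekeeping lists differed less. Cytosolic ribosomal protein genes were higher in 9 of 33 cases and lower in 0 by limma (0 also at an unadjusted p under 0.05). Over all genes tested 20.0% were higher and 18.2% lower. Rpl14 stood at 1.35 ± 0.20, Rpl37 at 1.30 ± 0.21, Rps25 at 1.18 ± 0.19 and Rpl12 at 1.14 ± 0.17. Of 38 oxidative phosphorylation genes 1 was lower, Uqcrc1 of complex III (-0.52 ± 0.14), and 0 were higher by limma (0 also at an unadjusted p under 0.05). Their median of 0.01 turned to -0.14 with median centring. Cholesterol genes were lower in 7 of 24 cases and higher in 1: Sqle, squalene epoxidase, fell by 1.04 ± 0.23 and Insig1, a sterol sensor, by 0.98 ± 0.19. Idi1 (-1.06 ± 0.37) and Ebp (0.40 ± 0.13), enzymes of the same route, both lost their calls in the 6-array fit, with adjusted p of 0.0625 and 0.11. Idi1 also lost it without any 1 of PreDP replicates 1 and 3, PostDP replicate 2, SM&M1 replicate 2 or M2 replicates 2 and 3, and Ebp without any 1 of PreDP replicates 2 and 3 or the M2 arrays.

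Of the D cyclins and CDK inhibitors, 2 of 17 were higher in M2 and 7 lower, with a median of -0.53: while Ccnd2 rose, Ccnd3, a D cyclin of thymocyte expansion, fell from 13.52, 13.48 and 13.34 to 11.70, 11.66 and 11.83 (-1.71 ± 0.10). E2f2 fell by 1.67 ± 0.24 and Rbl2, an Rb relative, by 0.87 ± 0.18. DNA replication genes were lower in 13 of 38 cases and higher in 0 by limma (20 and 0 at an unadjusted p under 0.05), with a median of -0.66 in M2 over PreDP that was made of steps of -1.34, 1.04 and -0.32. The upward step, from PostDP to SM&M1, is the one between mouse lines, where line and stage cannot be told apart; within lines the median was -1.68, and 31 of the 38 genes were called lower and 0 higher. Ccne2, cyclin E2, read 10.41, 9.48 and 10.22 in PreDP, 7.09, 5.79 and 6.05 in PostDP and 8.20, 7.52 and 7.26 in M2 (-2.38 ± 0.36, adjusted p = 0.000316). Uhrf1, which maintains DNA methylation, fell by 2.28 ± 0.41, Gins1, a helicase subunit, by 1.54 ± 0.41 and Cdc6, an origin licensing factor, by 1.70 ± 0.54. The call of Cdc6 was lost without any 1 of PreDP replicates 1 and 3 or M2 replicates 2 and 3, with adjusted p of 0.0618 to 0.0963.

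Of the mitotic genes 1 of 43, the condensin subunit Ncapd2 (-0.99 ± 0.24), was lower, 0 were higher by limma and 42 did not pass. At an unadjusted p under 0.05 it was 2 lower and 0 higher. The list's steps were -1.94, 1.48 and 0.23, the second again between mouse lines, and its within-line median was -1.73, with 8 genes called lower and 0 higher. Mki67, the proliferation marker, read 12.33, 11.09 and 11.40 in PreDP, 9.34, 7.36 and 7.13 in PostDP and 11.81, 10.63 and 10.70 in M2 (-0.55 ± 0.56), so that PreDP and M2 overlapped. In this list replicate 1 was the highest array in all 4 groups. Its list median over the PreDP mean was 0.95 in PreDP against -0.57 and -0.34 in the other PreDP arrays, and 0.34 in M2 against -0.49 and -0.60. The list median of M2 over PreDP, -0.24, turned to 0.24 without PreDP replicate 1, and the DNA replication median of -0.66 came to -0.43 without it.

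**Figure D3:**
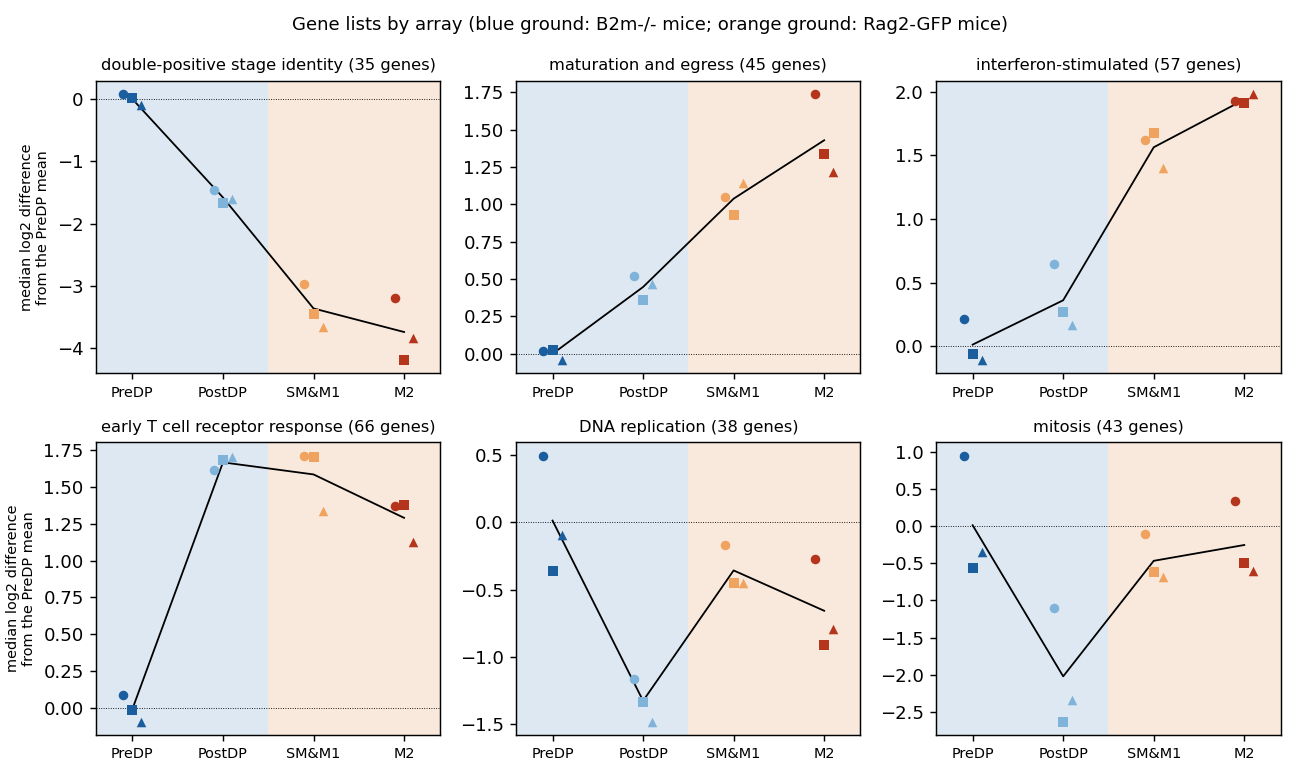
Median log2 difference of 6 gene lists from the PreDP mean (y axis), 1 point per array (circle, square and triangle for replicates 1, 2 and 3) and a line through the group means, over the 4 stages (x axis); blue ground marks B2m-/- mice and orange ground Rag2-GFP mice. DP identity falls at each step, and interferon-stimulated genes rise mostly between PostDP and SM&M1. The mitosis list dips in PostDP, and its M2 arrays overlap its PreDP arrays. Replicates 1, 2 and 3 of that list are at 0.95, -0.57 and -0.34 in PreDP and at 0.34, -0.49 and -0.60 in M2.

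Genes that left their starting level and came back were defined by an interval and not by a missed test. A gene counted as away when PostDP or SM&M1 differed from PreDP at adjusted p under 0.05 and at least 2-fold, which held for 2103 genes (17.7%). It counted as back when the 95% confidence interval of M2 minus PreDP lay wholly within 2-fold either way. That held for 216 genes (1.82%), 123 after a rise and 93 after a fall. Most genes that left did not come back: 1680 of the 2103 were called in M2 against PreDP and not back, and 207 were undecided. Of the 216, 49 still differed by a small, called amount. The count follows its bounds, with 38 genes for an interval within 1.5-fold, 695 within 3-fold and 17 for a move of at least 4-fold. All these comparisons share the PreDP arrays, so the counts are a description. A return also compares M2 of Rag2-GFP mice with PreDP of B2m-/- mice. Any part of it made from PostDP to SM&M1 lies between mouse lines, where line and stage cannot be told apart.

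After a rise, the largest returns were Rapsn, Tox2, Tacc2, Ccr4, Gpr153, Il17rb, Rasgrp4, Klhl4, Asb2 and C1qtnf12. Tox2, a relative of the thymic factor Tox, read 8.30, 8.04 and 8.66 in PreDP, at least 11.91 in PostDP, 9.59 to 10.13 in SM&M1 and 9.07, 7.83 and 8.09 in M2. Its difference from the start was -0.01, with an interval of -0.63 to 0.62. Ccr4, a chemokine receptor of newly selected cells, read 5.97 to 6.64, then 9.13 to 9.62, then 6.96 to 7.53, then 6.42 to 6.86 (interval -0.14 to 0.80). In both the M2 arrays overlapped the PreDP arrays.

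Il17rb, an IL-17 family receptor chain, rose from 8.56 to 8.80 up to 11.42 to 11.73 in PostDP and ended at 9.40, 8.05 and 8.34 (interval -0.66 to 0.53). Without M2 replicate 1 it was called lower (-0.47, limma adjusted p = 0.0328). Rasgrp4, a Ras activator, read 4.80 to 5.14, then 7.66 to 8.07, and 4.71 to 5.03 in M2. Gpr153, Asb2 and C1qtnf12 peaked in SM&M1 and not in PostDP: Asb2, a ubiquitin ligase subunit, read 6.54 to 7.14 in PreDP, 9.11 to 9.88 in SM&M1 and 6.61 to 6.97 in M2. C1qtnf12 (0.65 ± 0.15) and Klhl4 (-0.56 ± 0.16) were back by the interval and yet called as small differences. The call of Klhl4 was lost without any 1 of PreDP replicate 3 or M2 replicates 2 and 3. Another probe set of C1qtnf12 differed in sign.

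After a fall, the largest returns were Mastl, Tcf19, Ccne1, Prxl2c, Abca1, Pif1, Degs1, Zfp367, Gbp6 and Ankle1, and several of these act in the cell cycle. Where the level rose again from PostDP to SM&M1, the mouse line changed too, and line and stage cannot be told apart. Mastl, a mitotic entry kinase, read 6.91 to 7.33 in PreDP, 4.61 to 4.92 in PostDP and 7.90, 7.18 and 6.23 in M2 (interval -0.70 to 0.78). Ccne1, cyclin E1, read 10.27, 9.09 and 9.53, then 7.11 to 8.08, then 9.93, 9.30 and 9.47 in M2 (interval -0.75 to 0.62). Ccne2 did not follow it and was still lower in M2, as given above.

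Abca1, a cholesterol exporter, read 11.63 to 12.22 in PreDP, 9.90 to 10.39 in PostDP and 11.26 to 11.82 in M2, and Degs1, a ceramide-forming desaturase, at least 11.30, 9.79 to 10.02 and 11.35 to 11.46. Gbp6, an interferon-induced GTPase, was back on the probe set used (interval -0.03 to 0.89), while its other probe set rose by 1.08 ± 0.19 (limma adjusted p = 0.000898). Prxl2c stayed low for longest, at 8.44 to 8.80 in PostDP and 8.47 to 8.97 in SM&M1, and read 10.02 to 10.04 in M2 against 10.48 to 10.63 at the start. It was back by the interval (-0.86 to -0.21) and yet called as slightly lower in M2. This call was lost when all 15 arrays were fitted (limma adjusted p = 0.055). For Ccne1 and Abca1 another probe set of the gene differed in sign.

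**Figure D4:**
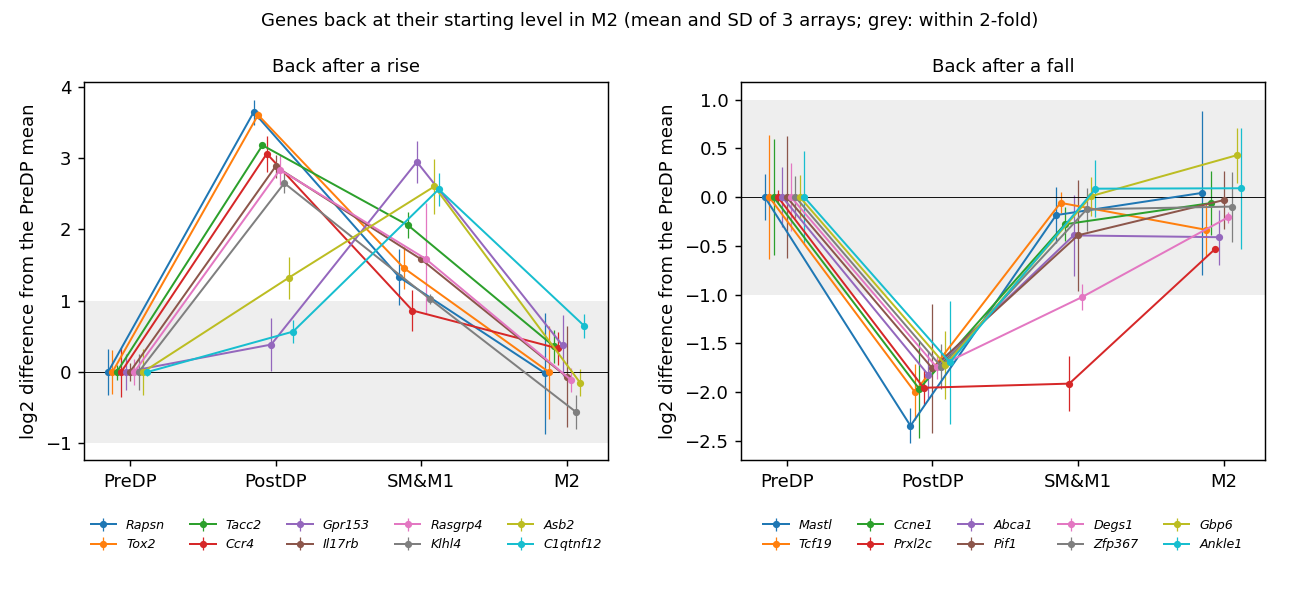
Log2 difference from the PreDP mean (y axis) over the 4 stages (x axis) for the 10 genes with the largest move that were back after a rise (left) and after a fall (right); points are means of 3 arrays, bars the SD, and the grey band marks 2-fold either way. Tox2 rises by 3.61 and ends at -0.01, and Mastl, which fell by 2.35, ends at 0.04. PreDP and PostDP are from B2m-/- mice, SM&M1 and M2 from Rag2-GFP mice.

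The following genes that came back were named after their values were seen. Gata3 read 10.72, 10.73 and 10.69 in PreDP, 12.73, 12.71 and 12.84 in PostDP, 11.47 to 11.60 in SM&M1 and 10.92, 10.79 and 10.53 in M2 (0.03 ± 0.12). Bcl2l11, the Bim gene of negative selection, read 10.84 to 11.31, then 13.08 to 13.10, and 10.49 to 10.72 in M2, below every PreDP array (interval -0.81 to -0.05). Cd28, the main costimulatory receptor, read 12.23 to 12.87, then 14.05 to 14.13, and 12.37 to 12.58. Ikzf2, the Helios factor, read 10.67 to 11.12, then 13.09 to 13.27, and 10.22 to 10.57, also below every PreDP array (interval -0.84 to -0.20).

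Only a gene that left can come back, so the lists were read against the 10.3% of genes that left and were back over all genes tested (216 of 2103). It was 9 of 53 early T cell receptor response genes that left, 7 of 27 DNA replication genes, 4 of 34 mitotic genes, 4 of 17 CD4 lineage genes and 0 of 29 DP identity genes. Mcm3, a helicase subunit, read 11.17 to 12.06 in PreDP, 10.28 to 10.46 in PostDP and 11.09 to 11.58 in M2. Notch1, the receptor of early thymocyte commitment, read 11.53 to 11.85, then 10.44 to 10.77, and 11.40 to 11.80, and Itga6, an integrin chain, 11.20 to 11.49, 9.75 to 10.19 and 11.17 to 11.51. In these 3 genes, too, M2 and PreDP overlapped.

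Markers of other cells were checked beside these results, since a few of them moved with M2. Of the tested members, 2 of 11 macrophage, 0 of 7 neutrophil (by limma, and 0 at an unadjusted p under 0.05), 2 of 9 dendritic cell, 1 of 7 B cell, 7 of 19 effector and memory T cell, 6 of 10 natural killer T, 6 of 11 regulatory T, 2 of 6 γδ T, 1 of 7 stroma and erythroid and 4 of 11 double-negative thymocyte markers were higher. Over all genes tested the shares were 20.0% higher and 18.2% lower. The macrophage, dendritic cell, B cell and stroma and erythroid lists lay near that share of higher genes. Called lower were 1 B cell, 1 natural killer T, 2 regulatory T, 1 stroma and erythroid and 1 double-negative marker. The largest falls of the natural killer T and regulatory T lists were Slamf1 (-1.35) and Nrp1 (-1.86). The summed signal of 20 macrophage markers was 1291 to 1586 in PreDP and 13884 to 17389.7 in M2, and most of the M2 sum was Ctss alone. Ctss read 5.36 to 6.19 in PreDP and 13.34, 13.66 and 13.95 in M2. The median difference of the 20 markers from the PreDP mean was 1.24, 0.25 and 0.34 in the M2 arrays. Csf1r, a defining receptor of macrophages, read 6.68 to 7.44 in PreDP and 8.57, 7.46 and 7.35 in M2. The summed signal of 9 neutrophil markers was 365 to 476 in PreDP and 591 to 4577 in M2.

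That width came from M2 replicate 1. S100a8 read 10.90 in it against 6.82 and 4.95, H2-Aa 10.98 against 7.68 and 7.13, and Nkg7 9.33 against 6.31 and 6.55. SM&M1 replicate 1 read 10.83, 10.80 and 9.17 for the same 3 genes. Gzma, a granzyme, was bright in PreDP itself, at 11.45 to 12.08, and read 11.23, 7.83 and 7.48 in M2. Without both of these arrays 3993 genes were called, 2106 higher and 1887 lower.

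Several marker genes that passed also stand on pathway lists, such as Il2rb, Id2, Tnfrsf9 and Izumo1r. Foxp3, which defines regulatory T cells, was dim, at 5.75 to 6.45 in PreDP and 6.93 to 7.38 in M2. Klrd1, a natural killer receptor, read 5.46 to 6.12 against 9.39, 8.25 and 8.60 (3.01 ± 0.68), and Cd74, the invariant chain, 7.55 to 7.87 against 11.35, 9.75 and 9.69 (2.59 ± 0.39). Without M2 replicate 1 these differences were 2.69 and 2.05. Cd79b and Notch3 fell by 3.58 ± 0.42 and 2.49 ± 0.46, and Cldn4 by 3.19 ± 0.21. Dtx1, a Notch target on the double-negative list, rose by 2.12 ± 0.26 and Prss16, a thymic protease, by 1.46 ± 0.16. Xcr1 (1.14 ± 0.36), Cd79a (1.57 ± 0.53) and Maf (1.72 ± 0.54) rose, but were not called without M2 replicate 1, with adjusted p of 0.0961, 0.13 and 0.0949, nor without any 1 of PreDP replicates 1 and 2. The same held without M2 replicate 3 for Xcr1 and Cd79a and without M2 replicate 2 for Maf. Fcgr3, an Fc receptor, rose by 2.25 ± 0.60 and Cd163l1, a scavenger receptor of γδ T cells, by 2.13 ± 0.42. The part of other cells in the differences between M2 and PreDP was not tested.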

How the data were processed

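The deposited values are linear signal intensity for 45101 probe sets on each of 15 arrays, with RNA amplified in a single round and labelled with biotin per the labels' protocols. The algorithm behind them is not given in the sources used here. On every array the mean intensity after trimming 2% at each end was 500, so the deposited arrays share a scale.

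Values were taken as log2(signal + 16). Probe sets with 1 gene (34945) were used, those with several genes (932, but for the Qa2 set) or unnamed here (9160) were left out, and each gene was read from the probe set brightest on average over the 15 arrays. Genes above the array median in at least 3 arrays were tested with limma 3.58.1 in R 4.3.3 on the 12 arrays of PreDP, PostDP, SM&M1 and M2, with 1 mean per group and no covariate. The Tak1-deficient group was left out because 1 of its arrays stands apart, with a median signal of 168, and was put back as an alternative. The code was tested on simulated data.

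The members and lists were chosen with earlier results of these data known. Named genes were the 10 largest rises and falls among called, non-overlapping, at least 2-fold genes, up to 4 called members of each pathway list, up to 2 of each list of other cells or states, the 10 largest returns in each direction, and the checks of the sort and the mouse lines; any other gene in the text was chosen after its values were seen. Promoters came from RefSeq. Replicate numbers were not taken as pairs: deviations of PreDP and M2 arrays with the same number correlated at 0.035, 0.15 and 0.006. These values over all genes do not exclude a structure shared by replicate number in some genes. Replicate 1 was the highest array of the mitosis list in all 4 groups, and a block on replicate number gave 4805 calls on 12 arrays against 4541. As the labels do not tie samples to animals, p-values reflect only the scatter of these samples, which could be technical, and the number of arrays limits the precision.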

Additional observations from a re-analysis of the deposited data

How the results depend on the processing

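Counts of called genes kept within 1.5 times of the main value under the alternatives run, apart from those given here. Median centring gave 1562 higher genes against 2380. With all 15 arrays the within-line part was called for 944 genes against 1757. The count of genes back at their starting level was 138 with a filter at the 75th percentile, 38 with an interval within 1.5-fold, 695 within 3-fold and 17 for a move of at least 4-fold, against 216. Leaving out 1 array at a time gave 3768 to 4575 calls in all, 1971 to 2426 higher, 1773 to 2149 lower, 1890 to 2040 at least 2-fold, 1335 to 1697 within-line calls and 178 to 259 returned genes. With the replicate number as a block the calls were 4805 on 12 arrays and 3475 on the 6 arrays, against 4541. No main call reversed except 65 with the mean of all probe sets and 1 with quantile normalization. The medians of 17 of 21 pathway lists kept their sign under every alternative; the exceptions were mitosis, the T cell receptor complex, E, Id and T cell factors, and oxidative phosphorylation. Of 105 named genes that passed, 91 kept their call and direction under every alternative and 0 reversed. The alternative without both SM&M1 replicate 1 and M2 replicate 1 was chosen after seeing the data. In dim genes signal over background sets the limit: near the floor of the scale a difference is understated. The causes of these shifts were not tested.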
